A study of Mus musculus with 6 samples.

Results

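The 9 genes described here mark cells that build bone and cells buried in it: Runx2, Sp7, Dlx5, Alpl, Ibsp, Bglap, Pth1r, Dmp1 and Phex. They were picked by symbol, and all 9 were found among the 23351 genes of the deposited expression table. RNA came from C57BL/6 mice, from periosteum and quadriceps muscle lying on injured bone, in 3 libraries labelled Clod-lip and 3 labelled Empty-lip. The names are read here as clodronate liposomes, which kill phagocytic cells that take them up, and as empty liposomes, their control; the injury was shared by both groups. The labels give no age, dose, route or time after injury. They also leave unsaid whether a group's libraries are from different animals, and p-values therefore reflect the spread among libraries, which may be technical. The series title names factors from macrophages in vessel growth and wound healing, and the question put to these 9 genes is whether the bone-forming programme differed when macrophages were targeted.

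Osteoblasts arise from progenitors of the periosteum and marrow. Commitment needs the transcription factor Runx2 and, after it, Sp7 (osterix), with Dlx5 acting beside them; alkaline phosphatase (Alpl) then comes on, followed by the mineral-binding matrix proteins bone sialoprotein (Ibsp) and osteocalcin (Bglap). Cells that become enclosed in matrix turn into osteocytes, which make Dmp1 and Phex, both regulators of mineral and phosphate. Macrophages of bone lie close to osteoblasts and are known to affect bone repair.

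None of the 6 members that could be tested passed the test between Clod-lip and Empty-lip, beside 4.05% of all genes tested. Alpl stood highest of them in relation to its spread, but it missed the adjusted threshold. For Alpl every Clod-lip library lay above every Empty-lip library, as for 14% of all genes tested. Bglap and Dmp1 each had a single library far from the others of its group, Empty-lip 3 for Bglap and Clod-lip 3 for Dmp1. Sp7, Dlx5 and Phex lay under 0.5 FPKM in mean, a level at which a library holds few fragments of a gene unless its transcript is long. Bglap, whose transcript is short, also rested on few by the steps described below.

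Values are FPKM, fragments scaled by transcript length and library size, so levels of different genes can be set side by side. With small RNA genes set aside, library sums lay from 561414 to 606630 FPKM. Low FPKM values moved in whole-number steps. Taking the depth of Empty-lip 1 as 1, these steps gave 0.994 to 1.13 for the libraries, provided that no further scaling was applied. If a step is 1 fragment, the steps of 123 genes with a single annotated transcript put Empty-lip 1 near 2849000 fragments (quartiles 2642000 and 2901000), a shallow depth. Of 14 macrophage markers, 10 did not pass and 4 fell (Lgmn, Fcgr1, Mrc1 and Mertk); 10 passed without Clod-lip 2, and 0 passed without any other single library, with no filter on low genes or without a trend in limma, and 1 with the replicate numbers as a block. Of the 14 log2 changes 1 was positive, and the median was -0.51. Clod-lip lay wholly below Empty-lip for 7 of the 14, where 13.4% of all genes did. The authors' deposited table called Lgmn, Fcgr1, Mrc1, Msr1, C1qa, C1qb, C1qc, Cd68, Csf1r and Emr1, all with lower Clod-lip means. It did not call Mertk, Cd163 or Cd14, and did not test Vsig4. The summed level of the 14 markers ran from 2054 to 3387 FPKM in Clod-lip against 3666 to 3916 FPKM in Empty-lip. Clod-lip 2 had the highest macrophage sum of its group, at 3387 FPKM, and the highest neutrophil marker sum of all libraries, at 3944 FPKM.

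Differences were tested with limma on log2(FPKM + 1) over the 13408 genes that averaged 0.5 FPKM or more; p-values were adjusted over all of them by Benjamini-Hochberg, and 0.05 was the threshold. Of the 6 members tested, 0 passed, beside 4.05% of all genes tested (2.84% higher and 1.21% lower in Clod-lip). At an unadjusted p under 0.05 there was 1 member, Alpl, beside 21.8% of all genes. In the authors' deposited table, 5 members were tested and 1, Alpl, was called, beside 12.2% of the genes they tested (6.82% higher and 5.41% lower in Clod-lip). The median log2 change of the 6 members was 0.25, beside -0.01 over all genes tested, and 4 of the 6 were positive. For low genes, the added 1 makes the change on this scale smaller than that of the FPKM.

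**Figure D1:**
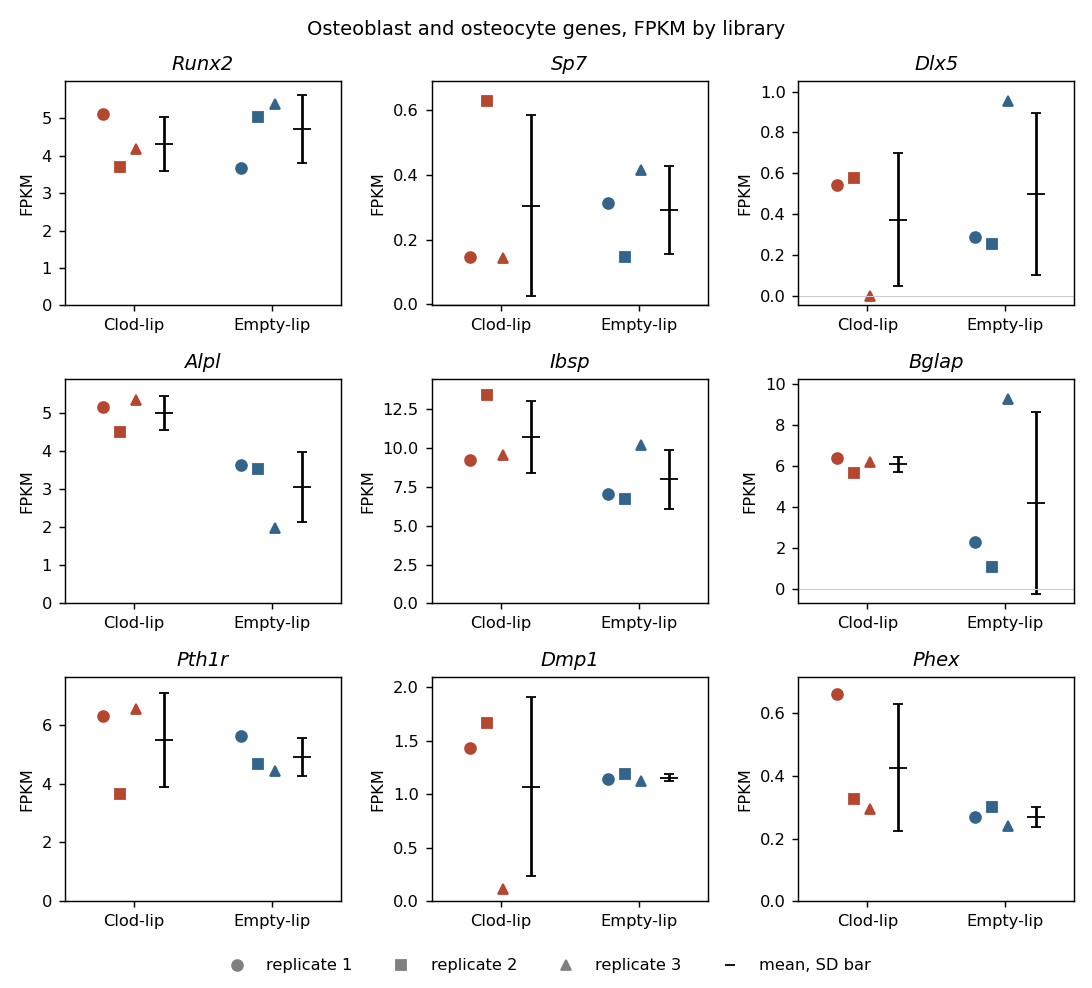
FPKM (vertical axes, each from about 0) of the 9 genes in the 3 Clod-lip libraries (red, left) and the 3 Empty-lip libraries (blue, right). Marker shapes give the replicate, and black bars the mean with its SD. Alpl is the gene whose groups do not overlap, while Bglap in Empty-lip 3 (9.26 FPKM) and Dmp1 in Clod-lip 3 (0.115 FPKM) lie far from the other libraries of their groups. Of all genes tested, 27.4% had groups that did not overlap, in either direction.

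No difference beyond the spread between libraries was detected for the transcription factors of the programme. Only Runx2 was tested in limma, since Dlx5 and Sp7 lay under the filter. Runx2, the factor without which osteoblasts do not form, lies on the minus strand of chromosome 17 from 44495987 to 44814797 (mm10, GENCODE M21); the locus in the authors' deposited table runs on to 45119284. It stood at 5.10, 3.69 and 4.16 FPKM in Clod-lip 1, 2 and 3, against 3.67, 5.04 and 5.38 FPKM in Empty-lip 1, 2 and 3. The groups overlapped almost fully, and each held a library near 3.7 FPKM. The means were 4.32 ± 0.719 FPKM in Clod-lip, against 4.70 ± 0.906 FPKM in Empty-lip (SD, n = 3 each), and the log2 change was -0.10 ± 0.17 (SE), with a limma adjusted p of 0.798. The 95% interval ran from -0.48 to 0.29, or from 0.715-fold to 1.23-fold on this scale. Exons of an antisense gene, Runx2os1, cover 519 of the 8837 annotated exon bases of Runx2, and the sources used here do not say whether strand was kept, so reads there cannot be assigned to either gene.

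Dlx5, a homeobox gene that acts on osteoblast and cartilage genes, lies on chromosome 6 from 6877805 to 6882085. It stood at 0.542, 0.578 and 0 FPKM in Clod-lip 1, 2 and 3, against 0.288, 0.251 and 0.954 FPKM in Empty-lip 1, 2 and 3. Empty-lip 3 was highest and Clod-lip 3 was listed at 0, so the groups overlapped across the whole range (exact two-sided permutation p = 0.6). These values lay near 2, 2 and 0 steps in Clod-lip and 1, 1 and 4 steps in Empty-lip, within 0.136 of a whole number, so these steps are approximate.

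Sp7, osterix, which acts after Runx2 in the same lineage, lies on chromosome 15 from 102356606 to 102367182. It stood at 0.147, 0.627 and 0.142 FPKM in Clod-lip 1, 2 and 3, against 0.312, 0.146 and 0.415 FPKM in Empty-lip 1, 2 and 3. Clod-lip 2 was highest, and the lowest libraries of both groups were nearly equal (exact two-sided permutation p = 0.9). The values were whole multiples of a single step, to within 0.001, of 1, 4 and 1 steps in Clod-lip and 2, 1 and 3 steps in Empty-lip. With 6 steps in each group, no difference in Sp7 was seen. If a step is 1 fragment, so few of them limit what could be detected.

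Alpl encodes tissue-nonspecific alkaline phosphatase, which frees phosphate for mineral and is an early sign of osteoblast maturation. The gene lies on the minus strand of chromosome 4 from 137741733 to 137796384. It stood at 5.15, 4.52 and 5.36 FPKM in Clod-lip 1, 2 and 3, against 3.65, 3.55 and 1.99 FPKM in Empty-lip 1, 2 and 3. All Clod-lip libraries lay above all Empty-lip libraries, and Empty-lip 3 was the lowest. Such a separation in either direction was found for 27.4% of all genes tested, and with Clod-lip higher for 14%; of the 9 members it was found for 1. The means were 5.01 ± 0.438 FPKM in Clod-lip, against 3.06 ± 0.927 FPKM in Empty-lip (SD, n = 3 each). The log2 change was 0.59 ± 0.19 (SE), with a 95% interval from 0.15 to 1.035, an unadjusted limma p of 0.0158 and a limma adjusted p of 0.130. Alpl has a q of 0.0422 in the authors' deposited table and was called there. The 2 tests thus fall on different sides of the same threshold.

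The Alpl values were whole multiples of 1 step to within 0.008. They came to 39, 32 and 42 steps in Clod-lip and 26, 27 and 16 steps in Empty-lip, or 113 against 69 in all. Taken as fragments, the 95% Poisson interval of Clod-lip 2 was 21.9 to 45.2 and that of Empty-lip 2 was 17.8 to 39.3. The libraries nearest in steps thus overlapped in counting error, which is all that these intervals cover. Those of Clod-lip 1 (27.7 to 53.3) and Clod-lip 3 (30.3 to 56.8) lay above that of Empty-lip 3 (9.1 to 26.0). Overlap of intervals between single libraries is not a test of the groups. Without Empty-lip 3 the log2 change of Alpl was 0.38 (limma adjusted p = 0.256), against 0.59 with all libraries. Alkaline phosphatase of this kind is also made by cells other than osteoblasts. Neutrophil markers, of which 5 of 12 rose, summed to 972, 3944 and 1340 FPKM in Clod-lip 1, 2 and 3, against 1576, 661 and 560 FPKM in Empty-lip 1, 2 and 3. Muscle markers, of which 17 of 18 rose, summed to 31770 to 34550 FPKM in Clod-lip against 14300 to 19910 FPKM in Empty-lip. With single libraries left out, the number of markers that passed was 0 to 5 for neutrophils and 0 to 17 for muscle, at 0 for both without Clod-lip 3 and without Empty-lip 2. Their part in the Alpl values was not tested.

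**Figure D2:**
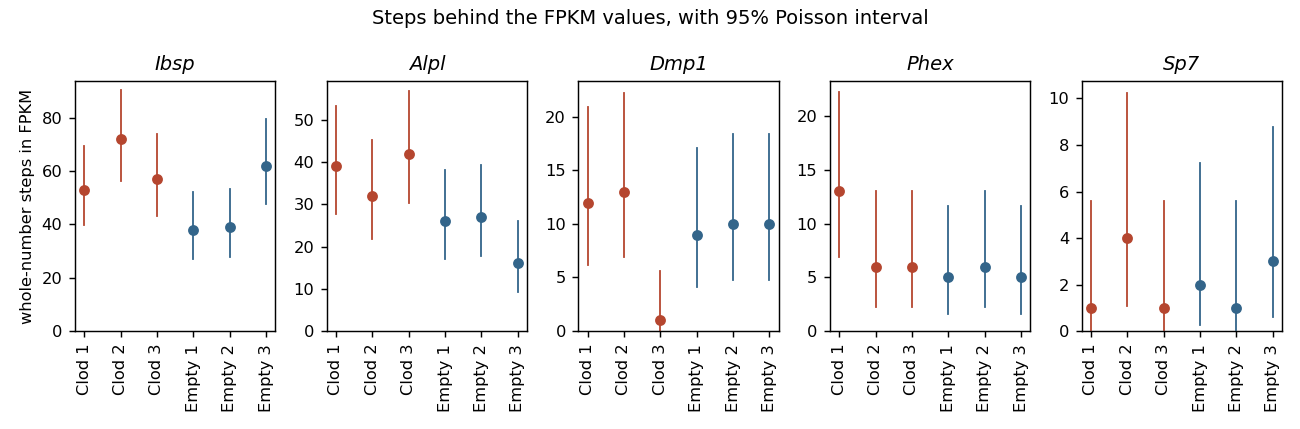
Whole-number steps behind the FPKM values (vertical axes, from 0) of 5 members whose values fell on a single step, in Clod-lip 1 to 3 (red) and Empty-lip 1 to 3 (blue), not corrected for the small differences in depth. Bars are 95% Poisson intervals, which assume that a step is 1 fragment and cover counting error only. Dmp1 has 1 step in Clod-lip 3 against 9 to 13 in the other libraries, and Sp7 has 1 to 4 steps throughout.

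Ibsp, bone sialoprotein, a matrix protein that binds mineral and integrins, had the highest level of the 9 genes in both groups. It lies on chromosome 5 from 104299171 to 104311469. Its values were 9.23, 13.4 and 9.58 FPKM in Clod-lip 1, 2 and 3, against 7.03, 6.75 and 10.2 FPKM in Empty-lip 1, 2 and 3. Clod-lip 2 was highest, but Empty-lip 3 exceeded Clod-lip 1 and 3, so the groups overlapped. The means were 10.7 ± 2.31 FPKM in Clod-lip, against 7.99 ± 1.91 FPKM in Empty-lip (SD, n = 3 each), and the log2 change was 0.39 ± 0.19 (SE), with a 95% interval from -0.05 to 0.83 (limma adjusted p = 0.283; authors' deposited q = 0.177). In steps, Clod-lip held 53, 72 and 57 and Empty-lip 38, 39 and 62. Without Clod-lip 2 the log2 change of Ibsp was 0.23, and without Empty-lip 3 it was 0.56 (limma adjusted p = 0.206).

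Ibsp is also made by hypertrophic cartilage, and Clod-lip 2 was the highest library for a pair of the tested cartilage collagens too. Col10a1, the collagen of hypertrophic cartilage, stood at 5.59 FPKM in Clod-lip 2 and at 1.88 and 1.11 FPKM in Clod-lip 1 and 3, against 0.666, 0.831 and 2.17 FPKM in Empty-lip 1, 2 and 3. Col2a1 stood at 13.7 FPKM in Clod-lip 2, and at 4.53 to 9.86 FPKM in the other libraries. Col10a1 was named after its values were seen. Comp, the most abundant chondrocyte marker, was not highest there, at 44.8, 33.8 and 39.8 FPKM in Clod-lip 1, 2 and 3, against 27.9, 35.5 and 26.8 FPKM in Empty-lip 1, 2 and 3. The other tested markers were not highest there either. In Clod-lip 2 Acan was lowest of all libraries (0.642 FPKM), Sox9 lowest of its group (3.49 FPKM) and Col11a2 below Clod-lip 3 (2.13 against 2.90 FPKM). Of the markers under the filter, only Col9a1 was highest there, at 0.533 FPKM. Acan, Sox9, Col11a2 and Col9a1 were also named after their values were seen. Of 6 chondrocyte markers tested, 0 passed in limma, and the 10 on the list summed to 57.7 to 61.8 FPKM in Clod-lip against 41.2 to 53.6 FPKM in Empty-lip, with Clod-lip 1 the highest. The part of cartilage in the Ibsp values was not tested.

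Bglap encodes osteocalcin, a small protein of mature osteoblasts that binds calcium after vitamin K dependent carboxylation. In mouse it has a pair of near copies on the same chromosome, Bglap2, also an osteocalcin gene, and Bglap3. Bglap lies on chromosome 3 from 88383501 to 88384464, Bglap2 from 88377736 to 88378699, and Bglap3 from 88368616 to 88372743, all on the minus strand. The coding sequences from GENCODE M21 (mm10), without the stop codon, are shown because they decide how well reads can be told apart. Capitals in Bglap mark bases that differ in at least 1 of the other copies, and capitals in Bglap2 and Bglap3 mark bases that differ from Bglap.
Bglap: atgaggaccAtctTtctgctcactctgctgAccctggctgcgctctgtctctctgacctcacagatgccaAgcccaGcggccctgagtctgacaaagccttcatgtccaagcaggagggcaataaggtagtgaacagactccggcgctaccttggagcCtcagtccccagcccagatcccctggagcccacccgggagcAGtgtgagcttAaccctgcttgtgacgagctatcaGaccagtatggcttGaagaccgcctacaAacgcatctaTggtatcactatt
Bglap2: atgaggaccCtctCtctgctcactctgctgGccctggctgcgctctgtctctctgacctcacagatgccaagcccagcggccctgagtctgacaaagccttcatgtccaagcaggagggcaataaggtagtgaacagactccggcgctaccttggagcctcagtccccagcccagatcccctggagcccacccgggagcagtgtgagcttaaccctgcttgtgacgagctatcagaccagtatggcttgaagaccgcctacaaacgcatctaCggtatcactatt
Bglap3: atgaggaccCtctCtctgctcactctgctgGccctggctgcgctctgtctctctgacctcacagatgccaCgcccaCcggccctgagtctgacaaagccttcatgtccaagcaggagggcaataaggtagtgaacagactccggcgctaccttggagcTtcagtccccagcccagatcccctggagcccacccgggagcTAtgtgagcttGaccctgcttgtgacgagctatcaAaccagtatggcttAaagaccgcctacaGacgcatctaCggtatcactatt
Of 285 bases, Bglap and Bglap2 differ at 4 and share an unbroken stretch of 241, while Bglap and Bglap3 differ at 13. Of the 50-base windows of the Bglap transcript, 74.7% occur unchanged in Bglap2 and 20.5% in a Bglap3 transcript. The values of single copies are therefore uncertain, since how shared reads were assigned is not given in the sources used here.

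Bglap stood at 6.37, 5.64 and 6.18 FPKM in Clod-lip 1, 2 and 3, against 2.26, 1.06 and 9.26 FPKM in Empty-lip 1, 2 and 3. The Clod-lip libraries lay close together, while the Empty-lip libraries lay on both sides of them, with Empty-lip 3 the highest of all. The means were 6.06 ± 0.377 FPKM in Clod-lip, against 4.19 ± 4.43 FPKM in Empty-lip (SD, n = 3 each), and the log2 change was 0.78 ± 0.51 (SE), with a 95% interval from -0.41 to 1.97 (limma adjusted p = 0.428; authors' deposited q = 0.735). The transcript is short, so that a step is worth about 1.14 FPKM. The values lay near 6, 5 and 6 steps in Clod-lip and 2, 1 and 9 steps in Empty-lip, within 0.169 of whole numbers, so these steps are approximate. Without Empty-lip 3 the log2 change was 1.45 (limma adjusted p = 0.0566), and without Empty-lip 2 it was 0.29 (limma adjusted p = 0.806), so that either library sets its size.

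The log2 change of Bglap2 had the opposite sign to that of Bglap, and neither passed. Bglap2 stood at 2.17, 3.46 and 2.10 FPKM in Clod-lip 1, 2 and 3, against 3.47, 2.16 and 4.12 FPKM in Empty-lip 1, 2 and 3, or 2, 3 and 2 steps against 3, 2 and 4 steps. The change was -0.24 ± 0.23 (SE, limma adjusted p = 0.599). Bglap3 was listed at 0 in all libraries. Summed over the 3 copies, osteocalcin genes stood at 8.54, 9.10 and 8.28 FPKM in Clod-lip, against 5.73, 3.22 and 13.4 FPKM in Empty-lip (log2 change 0.38, exact two-sided permutation p = 0.7). The sum removes the choice between copies only if each shared read was counted once in all, which the sources used here do not give.

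Pth1r encodes the receptor by which osteoblasts and osteocytes respond to parathyroid hormone and its related peptide. It lies on the minus strand of chromosome 9 from 110722085 to 110747145. It stood at 6.29, 3.66 and 6.53 FPKM in Clod-lip 1, 2 and 3, against 5.62, 4.66 and 4.42 FPKM in Empty-lip 1, 2 and 3. Clod-lip 2 was the lowest library and the other Clod-lip libraries the highest, so Empty-lip lay within the Clod-lip range. The means were 5.49 ± 1.59 FPKM in Clod-lip, against 4.90 ± 0.634 FPKM in Empty-lip (SD, n = 3 each), and the log2 change was 0.11 ± 0.20 (SE), with a 95% interval from -0.36 to 0.58 (limma adjusted p = 0.809). Without Clod-lip 2 it was 0.33 (limma adjusted p = 0.194), and without Clod-lip 3 it was -0.013. Exons of Myl3, a myosin light chain gene on the opposite strand, cover 95 of 2925 exon bases of Pth1r. Myl3 stood at 23.4, 15.7 and 12.6 FPKM in Clod-lip 1, 2 and 3, against 11.05, 10.3 and 13.9 FPKM in Empty-lip 1, 2 and 3; its part in the Pth1r values was not tested.

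Of the osteocyte genes, Dmp1 encodes an acidic matrix protein that takes part in mineralization and holds down the phosphate hormone Fgf23. It lies on chromosome 5 from 104202613 to 104214102, near Ibsp in the cluster of genes for such matrix proteins. It stood at 1.44, 1.66 and 0.115 FPKM in Clod-lip 1, 2 and 3, against 1.14, 1.19 and 1.13 FPKM in Empty-lip 1, 2 and 3. Clod-lip 1 and 2 lay above all Empty-lip libraries and Clod-lip 3 below them. The means were 1.07 ± 0.835 FPKM in Clod-lip, against 1.15 ± 0.0315 FPKM in Empty-lip (SD, n = 3 each), and the log2 change was -0.16 ± 0.32 (SE), with a limma adjusted p of 0.835.

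In steps, Dmp1 came to 12, 13 and 1 in Clod-lip and to 9, 10 and 10 in Empty-lip, to within 0.002 of whole numbers. The 95% Poisson interval of the 1 step in Clod-lip 3 was 0.0253 to 5.57. It lay below those of Clod-lip 1 (6.20 to 21.0) and Clod-lip 2 (6.92 to 22.2). It overlapped those of Empty-lip 1 (4.12 to 17.1) and of Empty-lip 2 and 3 (4.79 to 18.4 each), which is not a test of a difference. The Empty-lip libraries held 29 steps in all. Without Clod-lip 3 the log2 change of Dmp1 was 0.24 (limma adjusted p = 0.521), the opposite sign. Other osteocyte genes differed in where Clod-lip 3 lay. Gja1, the gap junction protein connexin 43, stood at 33.2, 43.4 and 37.55 FPKM in Clod-lip 1, 2 and 3, against 50.2, 43.7 and 43.2 FPKM in Empty-lip 1, 2 and 3, so that Clod-lip 3 lay below all Empty-lip libraries. Mepe, a further osteocyte matrix gene, stood at 2.06, 1.54 and 1.19 FPKM in Clod-lip 1, 2 and 3, against 1.31, 0.409 and 0.583 FPKM in Empty-lip 1, 2 and 3. Sost, which encodes the Wnt inhibitor sclerostin, stood at 0.491, 1.22 and 0.632 FPKM in Clod-lip, against 0.522, 0 and 0.464 FPKM in Empty-lip. For Mepe Clod-lip 3 lay within the Empty-lip range, and for Sost above it. Gja1, Mepe and Sost were named after their values were seen.

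Phex, on the X chromosome from 157162075 to 157415312, encodes a membrane peptidase of osteoblasts and osteocytes whose loss causes phosphate wasting. It stood at 0.658, 0.325 and 0.293 FPKM in Clod-lip 1, 2 and 3, against 0.269, 0.302 and 0.239 FPKM in Empty-lip 1, 2 and 3. Clod-lip 1 was more than any other library, and Clod-lip 3 lay just under Empty-lip 2 (exact two-sided permutation p = 0.2). The values were 13, 6 and 6 steps in Clod-lip and 5, 6 and 5 steps in Empty-lip. The log2 change was 0.16 with all libraries and 0.04 without Clod-lip 1.

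**Figure D3:**
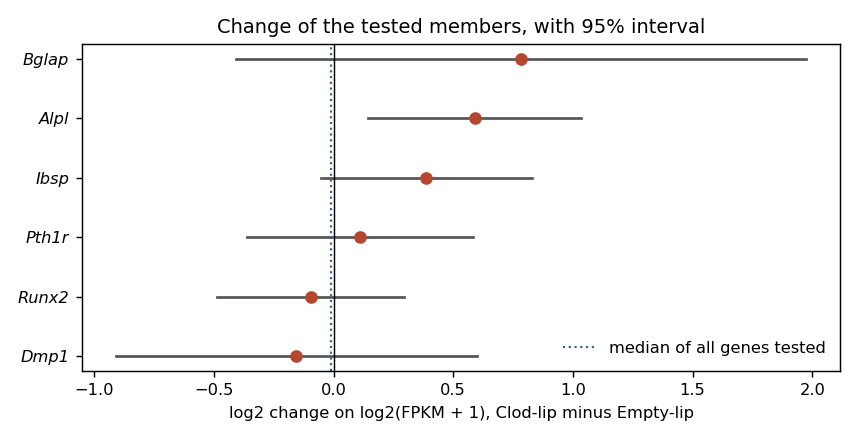
Log2 change on log2(FPKM + 1), Clod-lip minus Empty-lip (horizontal axis), of the 6 tested genes, as points with their 95% intervals from limma; the dotted line is the median of all genes tested. The interval of Alpl (0.15 to 1.035) lies above 0 before adjustment, and that of Bglap is the widest.

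Ordered by mean level in Clod-lip, the genes ran Ibsp, Bglap, Pth1r, Alpl, Runx2, Dmp1, Phex, Dlx5 and Sp7. In Empty-lip the order was Ibsp, Pth1r, Runx2, Bglap, Alpl, Dmp1, Dlx5, Sp7 and Phex. In Clod-lip the values of Ibsp lay wholly above those of Bglap, and those of Runx2 wholly above those of Dmp1; all other neighbours in that order overlapped. In Empty-lip, Ibsp lay above Pth1r, Alpl above Dmp1 and Dmp1 above Dlx5, and the other neighbours overlapped. By mean, Ibsp was highest in both groups, Bglap, Pth1r, Alpl and Runx2 followed in differing order, and Dmp1 and the genes under 0.5 FPKM came last. Summed, the 9 genes stood at 34.9, 34.1 and 32.4 FPKM in Clod-lip, against 24.2, 22.9 and 34.0 FPKM in Empty-lip, with Ibsp and Bglap the largest terms of the gap between Empty-lip 3 and the other Empty-lip libraries. In this bulk tissue, a difference in the number of bone-forming cells and a difference in RNA per cell cannot be told apart.

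The wider bone programme was read from 5 further lists. Of 18 tested genes of bone matrix and mineralization, 1 rose, 2 fell and 15 did not pass, with a median log2 change of 0.21 and 14 positive, beside a median of -0.01 over all genes. Ogn, which encodes the matrix proteoglycan mimecan, rose to 109, 86.1 and 106 FPKM in Clod-lip, against 62.8, 66.9 and 58.7 FPKM in Empty-lip (log2 change 0.66 ± 0.11, limma adjusted p = 0.0242). Enpp1, which makes pyrophosphate, an inhibitor of mineral growth, fell to 9.02, 10.4 and 9.88 FPKM in Clod-lip, against 14.3, 16.2 and 15.1 FPKM in Empty-lip (log2 change -0.59 ± 0.10, limma adjusted p = 0.0262). Spp1, osteopontin, which macrophages also make, fell to 1059, 1556 and 1283 FPKM in Clod-lip, against 2263, 3011 and 3094 FPKM in Empty-lip (log2 change -1.11 ± 0.18, limma adjusted p = 0.0232). Col1a1, the main collagen of bone and also of fibroblasts, stood at 1023, 1161 and 1153 FPKM in Clod-lip, against 1253, 1094 and 1061 FPKM in Empty-lip (log2 change -0.03, limma adjusted p = 0.908; named after its values were seen).

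Several low genes of mineralization had groups that did not overlap without passing, and were named after their values were seen. Phospho1, a phosphatase of matrix vesicles, stood at 3.39, 4.39 and 5.35 FPKM in Clod-lip, against 2.85, 2.84 and 1.85 FPKM in Empty-lip (log2 change 0.61, limma adjusted p = 0.119). Smpd3, a sphingomyelinase needed for mineral in bone, stood at 1.37, 1.52 and 1.68 FPKM in Clod-lip, against 0.724, 0.801 and 0.819 FPKM in Empty-lip (log2 change 0.50, limma adjusted p = 0.108). Omd, osteomodulin, had a log2 change of 0.71 (limma adjusted p = 0.0564). The authors' deposited q was 0.560 for Phospho1 and 0.762 for Omd, neither called, and Smpd3 was not tested there. The authors list Omd and Ogn under the same locus. In this list 9 of 18 genes had Clod-lip wholly above Empty-lip and 2 wholly below, where 14% and 13.4% of all genes did. The muscle, neutrophil and macrophage markers given above moved with the same groups, and their part in these lists was not tested.

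Of 14 tested transcription factors and cofactors, 0 rose, 1 fell and 13 did not pass, with a median of 0.08. Maf, a factor of osteoblasts that macrophages also express, fell to 38.0, 47.1 and 39.6 FPKM in Clod-lip, against 62.6, 72.0 and 64.0 FPKM in Empty-lip (log2 change -0.66 ± 0.10, limma adjusted p = 0.0226). Runx1 and Cbfb, a relative and the partner of Runx2, had log2 changes of -0.06 and 0.00. Runx3, a further relative, stood at 2.91, 4.88 and 3.93 FPKM in Clod-lip, against 7.32, 8.75 and 6.50 FPKM in Empty-lip. Its log2 change was -0.81 (limma adjusted p = 0.0517), and it was called in the authors' deposited table (q = 0.000928). Runx1, Cbfb and Runx3 were named after their values were seen. Of 8 tested osteocyte genes, 0 rose, 1 fell and 7 did not pass, with a median of -0.05, which ran from -0.18 (without Clod-lip 2) to 0.02 (without Clod-lip 3) with single libraries left out. The gene that fell was Pdpn, podoplanin, which is also made by fibroblasts and some macrophages (log2 change -0.63 ± 0.13, limma adjusted p = 0.0480).

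Of 14 tested genes of the parathyroid hormone, Wnt and hedgehog pathways, 0 passed in limma, 11 were positive and the median was 0.17. Its most abundant genes were Gnas, the G protein subunit that Pth1r acts through, at 719 ± 33.0 FPKM in Clod-lip, against 643 ± 7.76 FPKM in Empty-lip (limma adjusted p = 0.266), and Sfrp2, a Wnt-binding protein, at 127 ± 11.03 FPKM in Clod-lip, against 126 ± 16.6 FPKM in Empty-lip (SD, n = 3 each). Of 9 tested genes of periosteal and skeletal progenitors, 0 rose, 1 fell and 8 did not pass, with a median of 0.15. Thy1, a surface protein of mesenchymal cells and of T cells, fell to 64.6 ± 1.29 FPKM in Clod-lip, against 83.6 ± 2.95 FPKM in Empty-lip (log2 change -0.37 ± 0.07, limma adjusted p = 0.0344). The authors' deposited q for Thy1 was 0.0554, so Thy1 was not called there. Counts over the 5 lists went to 0 without Clod-lip 1, without Clod-lip 3, without Empty-lip 2 and without Empty-lip 3; without Empty-lip 1, 1 transcription factor and 1 matrix gene passed.

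**Figure D4:**
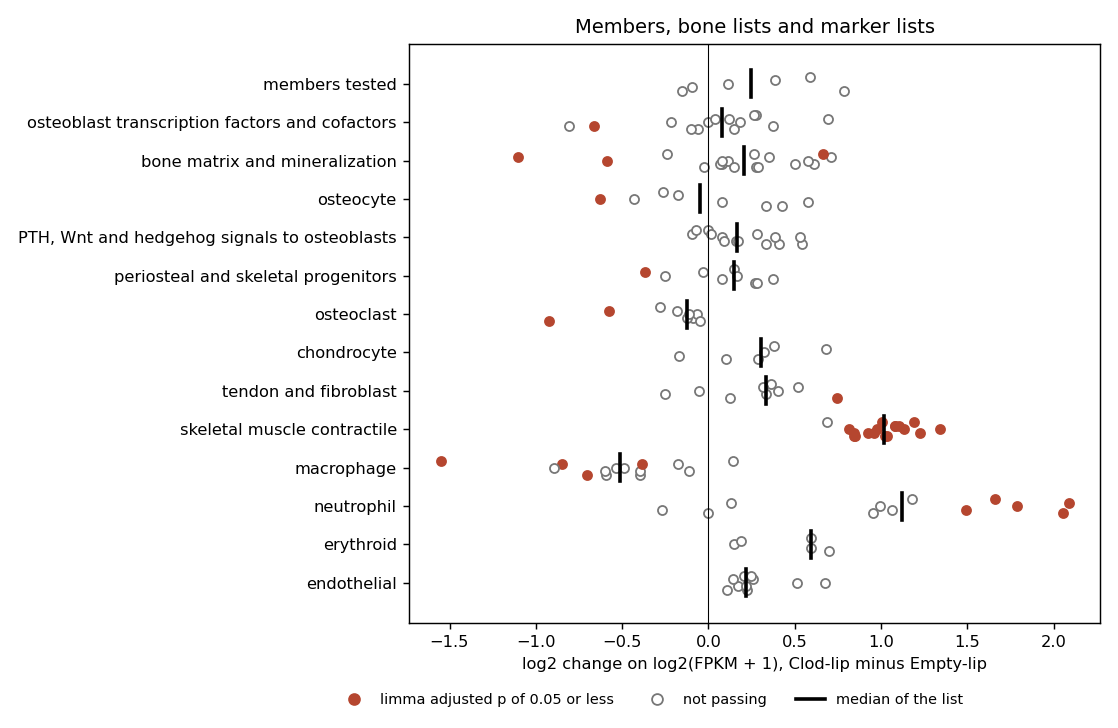
Log2 change on log2(FPKM + 1), Clod-lip minus Empty-lip (horizontal axis), of each gene of the members, the 5 bone lists and the 8 marker lists (rows); filled points passed limma, open points did not, and bars are list medians. No member is filled, osteoclast genes lie below 0 (9 of 9), and contractile genes of muscle lie above 0 (18 of 18).

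Osteoclasts, which resorb bone and arise from the macrophage lineage, were read beside the bone-forming genes. Of 9 tested osteoclast genes, 0 rose, 2 fell and 7 did not pass, and all 9 log2 changes were negative (median -0.13). Acp5, tartrate-resistant acid phosphatase, which macrophages also make, fell to 24.0, 34.1 and 22.2 FPKM in Clod-lip, against 56.2, 46.5 and 50.05 FPKM in Empty-lip (log2 change -0.92 ± 0.16, limma adjusted p = 0.0285). Tnfrsf11a, the RANK receptor, fell to 5.47, 5.24 and 4.54 FPKM in Clod-lip, against 7.23, 8.598 and 8.398 FPKM in Empty-lip (log2 change -0.58 ± 0.12, limma adjusted p = 0.0443). Both calls were lost without Clod-lip 1, without Clod-lip 3, without each of the 3 Empty-lip libraries, with the replicate numbers as a block and without a trend in limma. Acp5 was not called in the authors' deposited table (q = 0.110), while Tnfrsf11a was (q = 0.00243). Of 9 tendon and fibroblast genes 1 rose, Fmod, fibromodulin (log2 change 0.74 ± 0.14), and of 5 erythroid and 10 endothelial genes 0 passed, with medians of 0.59 and 0.22.

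Genes most like the mean standardized profile of the 6 tested members were sought over the 6 libraries. That profile was highest in Clod-lip 1 (0.62), where none of the 6 members had its own highest value. Likeness to it is therefore not likeness to each member. By Pearson correlation the most similar genes were Acadl (0.996), an enzyme of fatty acid oxidation, Six5 (0.992), Dlk1 (0.974), Foxs1 (0.972) and Pcmtd2 (0.969), none of them called between groups. Dlk1 stood at 2.59, 1.55 and 1.29 FPKM in Clod-lip, against 0.481, 0.442 and 0.927 FPKM in Empty-lip. These values describe 6 libraries of the same tissue and grouping, and were picked as the highest among 5509 genes.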

How the data were processed

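TopHat and mm10, a mouse build, are named in the submitters' processing notes; the sources used here give no other tool, read length or strandedness. Each library has deposited FPKM, with group means, and the authors added a test score, p-value and q-value of their own for each gene; the deposited score was not used. FPKM are not counts, so no count test was run.

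Members and lists were chosen with earlier results of these data known. limma 3.58.1 in R 4.3.3 was fitted with a trend to log2(FPKM + 1) of 13408 genes, by title group and with no covariate, since the labels give no batch; members under the filter got exact permutation tests over libraries, which cannot go below 0.1 with 3 against 3. The fit was tested on simulated data.

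Named genes are the 9 members and the Bglap copies, from each list at most 4 passing genes, those of lowest p, or the 2 most abundant where none passes, and the 5 of most similar pattern with a mean of at least 1 FPKM and an SD of at least 0.2 on the log2 scale. Of 169 list entries, 166 matched a symbol, 2 of them through a RefSeq synonym (Emr1 for Adgre1, Beta-s for Hbb-bs).

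At up to 0.5 FPKM, values of a pair of libraries stood in whole-number ratios for 87.2% to 88.3% of genes, against 0.100% to 0.320% with depth shifted by 2%. Of 4338 genes averaging 0.25 to 6 FPKM, 73.1% lay within 0.05 of whole steps, with a step that suited an annotated transcript length, against 0.580% with shifted depths. Runx2 and Pth1r, with transcripts of many lengths, gave no single step. Dlx5 and Bglap met only a looser rule, within 0.25 of whole steps, which was not checked with shifted depths. Pearson correlations between libraries ran from 0.950 to 0.977. The titles number the libraries but do not say whether equal numbers were paired. Alternatives were the replicate block, each library left out, a pseudocount of 0.1 or 0.5, all genes unfiltered, a 5 FPKM filter, quantile and median-of-ratios scaling, and no trend; omitting Empty-lip 1 with Clod-lip 2 was chosen after seeing the data. Coding sequences come from GENCODE M21.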

Additional observations from a re-analysis of the deposited data

How the results depend on the processing

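The count of members passing was 0 under every alternative listed. The count of all genes passing, 543 (70.2% higher), was 170 with the replicate block, 312 with no filter, 284 without trend (83.1% higher), and 2 to 1392 with single libraries left out, 2 without Empty-lip 2 and 1392 without Clod-lip 2 (43.8% higher); it was 1101 without Empty-lip 1 and Clod-lip 2 together. Alpl, Ibsp, Bglap, Phex and Runx2 kept their sign throughout, with Alpl between 0.38 and 0.76 on the log2 scale (limma adjusted p 0.115 to 0.317). The log2 change of Sp7 turned to -0.089 with a pseudocount of 0.1, to -0.012 with 0.5, to -0.048 with quantile normalization and to -0.15 without Empty-lip 1 and Clod-lip 2. With single libraries left out, that of Sp7 ran from -0.17 (without Clod-lip 2) to 0.087 (without Clod-lip 3). Likewise Dlx5 ran from -0.24 (without Clod-lip 2) to 0.090 (without Clod-lip 3), Pth1r from -0.013 (without Clod-lip 3) to 0.33 (without Clod-lip 2), and Dmp1 from -0.39 (without Clod-lip 2) to 0.24 (without Clod-lip 3). With a pseudocount of 0.1 the log2 change of Dmp1 was -0.59 against -0.16 as reported, that of Dlx5 -0.57 against -0.12, and that of Phex 0.45 against 0.16. As given above, the added value makes changes of low genes smaller on this scale. Why single libraries moved the changes of these genes was not tested. Of 35 list genes called, 15 were still called with the replicate block, 0 to 35 with single libraries left out. Deviations of same-numbered libraries from their group means had correlations of -0.08, -0.04 and 0.08, and not every library correlated best with its own number. Deviations within a group offset each other, so these values cannot exclude a pairing. The titles do not say whether libraries were paired. No scaling moved the median of all genes by over 0.1. Genes under 0.5 FPKM rest on few fragments, if a step is 1 fragment, which limits what could be detected. The same holds for Bglap, which was tested but has a short transcript. It held near 17 steps in Clod-lip and 12 in Empty-lip, fewer than the 25 and 16 of Phex. The block and the fit without trend give no value for Sp7, Dlx5 and Phex, nor does the filter of 5 FPKM for these and for Runx2, Alpl and Dmp1.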
